A study of Mus musculus with 6 samples.

Results

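The genes that activate thyroid hormone and carry its signal into the nucleus were followed in inguinal white fat of Naa10-KO and WT mice. They are the deiodinases Dio1, Dio2 and Dio3, the thyroid hormone receptors Thra and Thrb, their partner Rxra and the Mediator subunit Med1. Members were all probe sets of the Affymetrix mouse genome array annotated to exactly 1 of these 7 symbols. This gave 18 probe sets of 6 genes, out of 45037 probe sets and 18193 genes in all. Dio3, the deiodinase that inactivates the hormone, had no probe set under its symbol in the annotation used and was not analysed here.

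RNA came from 3 Naa10-KO and 3 WT male mice, with 1 array per mouse. Both genotypes had eaten a fat-rich diet (60% of calories) for 15 weeks, starting at 6 weeks of age, and were kept at 4 °C for the last 4 h. Naa10 encodes an enzyme that acetylates the N-termini of proteins, and the series title asks whether it restrains heat production by beige adipocytes. The labels name the knockout without giving an allele, a Cre driver, a strain or controls at room temperature, so neither the cells that lost Naa10 nor a response to cold can be read from these arrays. The knockout itself was not checked, because Naa10 was not analysed here.

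The thyroid gland releases mostly thyroxine, a prohormone. In brown and beige fat the enzyme encoded by Dio2 removes an iodine from its outer ring and makes triiodothyronine inside the cell, while Dio1 does this mainly in liver, kidney and thyroid. Triiodothyronine binds the receptors of Thra and Thrb, which sit on DNA as heterodimers with a retinoid X receptor such as Rxra. Hormone binding trades corepressors for coactivators, and Med1 is the subunit through which the Mediator complex, a bridge to RNA polymerase II, contacts liganded receptors. Noradrenaline released in the cold raises cAMP, which induces Dio2 in brown fat, and the receptors then act with the same signal on genes such as Ucp1.

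The promoters of both activating deiodinases are shown because they differ in the element through which cAMP acts. RefSeq's promoter table (GRCm38.p6) held 8 start sites of 6 of the 7 genes, and the 250 bases before each start were searched on both strands for the cAMP response element TGACGTCA, its core TGACG, the hexamer AGGTCA that these receptors bind and the TATA box TATAAA. Capitals mark matches, and TGACG lies within TGACGTCA. The window of Dio2 is chr12:90739039-90739288 on the minus strand, and that of Dio1 is chr4:107307169-107307418 on the minus strand.
Dio2: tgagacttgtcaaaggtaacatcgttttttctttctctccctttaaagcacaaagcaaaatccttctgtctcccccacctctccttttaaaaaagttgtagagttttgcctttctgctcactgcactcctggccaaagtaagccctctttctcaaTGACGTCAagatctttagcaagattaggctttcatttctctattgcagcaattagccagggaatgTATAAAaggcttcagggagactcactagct
Dio1: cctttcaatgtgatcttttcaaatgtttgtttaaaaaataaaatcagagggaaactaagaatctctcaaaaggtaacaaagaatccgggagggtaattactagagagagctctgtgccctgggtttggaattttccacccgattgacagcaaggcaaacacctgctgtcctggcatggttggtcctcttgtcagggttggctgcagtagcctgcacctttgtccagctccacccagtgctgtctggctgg
Dio2 held a full cAMP response element starting 95 bases before the start, and a TATA box starting 30 bases before it. The full element occurred in 1.55% of all 32851 promoter windows of that length and in no other window of these genes. The TATA box occurred in 12.4% of all windows, and also upstream of Dio3 and of 1 of the 2 starts of Thrb. Dio1 had none of the 4 motifs in this window. AGGTCA, found in 14.0% of all windows, was present upstream of 1 of the 2 starts of Thrb and 1 of the 2 starts of Rxra. The core TGACG, in 17.8% of all windows, was also present upstream of Thrb. These matches are letters in a window, not measured binding.

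Values are the log2 signals the authors deposited, 1 per probe set and array, used without further normalization. No detection calls were used, so signals under the median of all values, 5.86, are called low. Signals of different probe sets depend on their probes and are not compared with each other. Each log2 difference is the Naa10-KO mean minus the WT mean, with its moderated standard error from limma (SE), and adjusted p-values are limma's with Benjamini-Hochberg adjustment over all 45037 probe sets. No member probe set passed an adjusted p of 0.05 (0 of 18, against 0.00% of all probe sets). Adjusted p-values of the 18 lay between 0.306 and 0.998. At an unadjusted p under 0.05 there was 1 member probe set, a Med1 one that was lower in Naa10-KO fat, against 3.96% of all probe sets in that direction. It was also the only member probe set whose 3 Naa10-KO arrays all lay on one side of the 3 WT arrays, and 7.82% of all probe sets were lower in this way. Member means were higher in Naa10-KO for 11 probe sets and lower for 7, with a median log2 difference of 0.048 against -0.0026 over all probe sets.

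**Figure D1:**
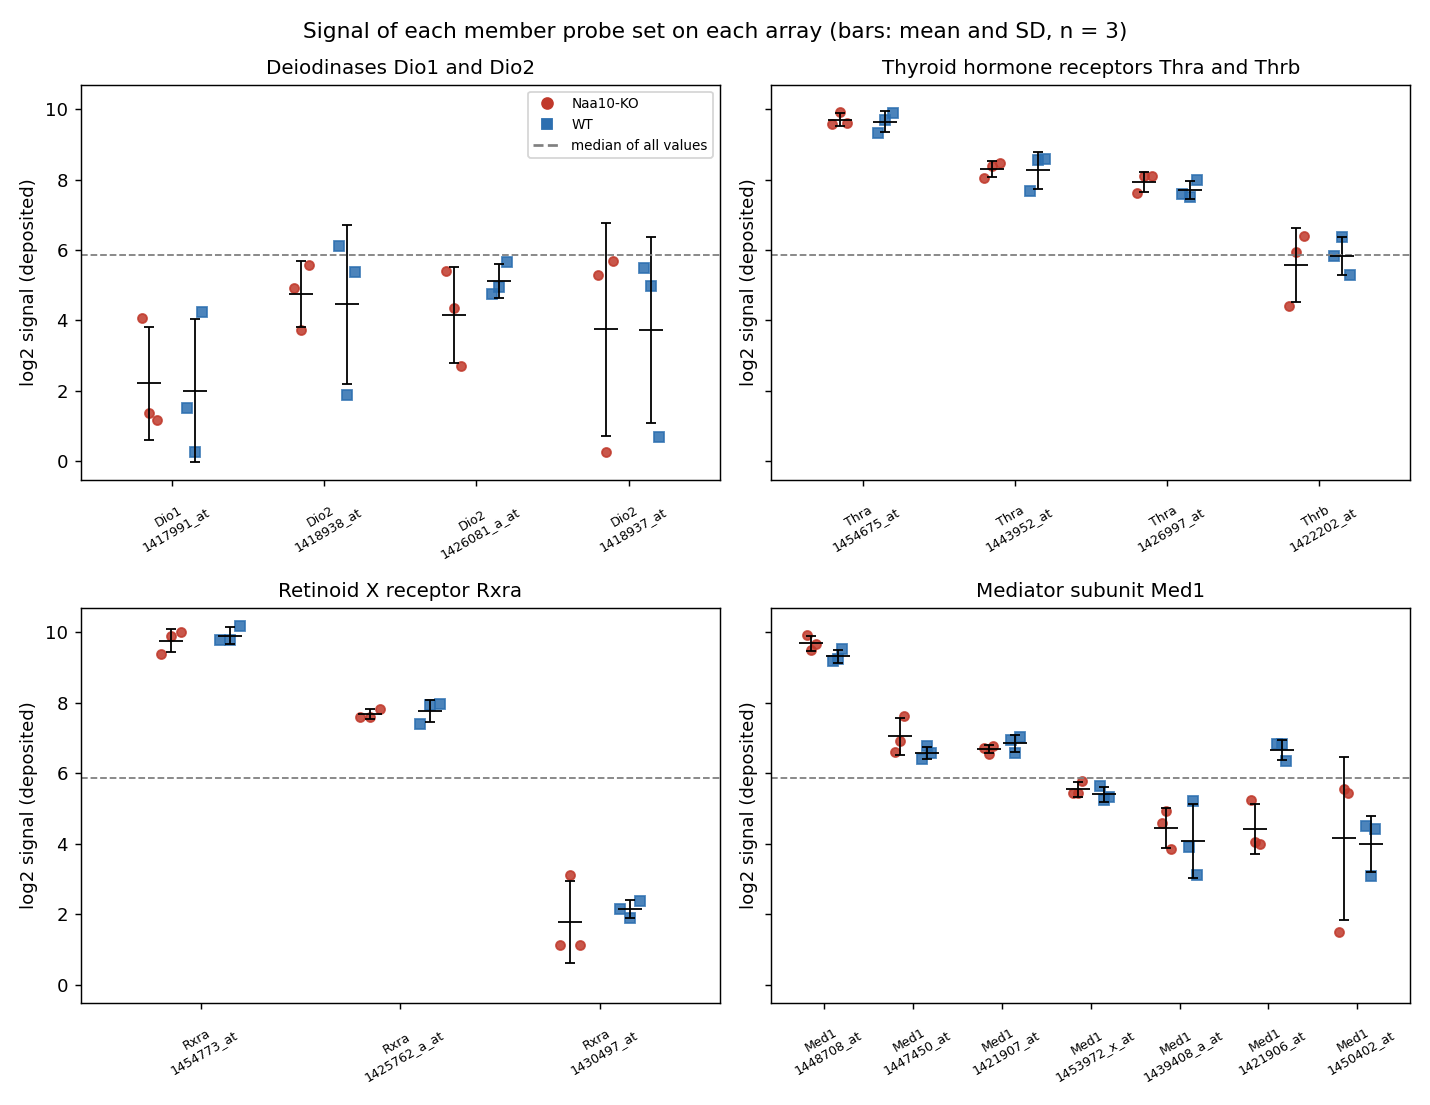
Deposited log2 signal (y axis) of the 18 member probe sets (x axis), with Naa10-KO arrays as red circles left of WT arrays as blue squares; black bars give the mean and SD of 3 arrays, and the dashed line is the median of all values, 5.86. Dio1 and Dio2 lie almost wholly below the line, all Thra values lie above it, and in Med1 1421906_at all 3 Naa10-KO arrays lie below all 3 WT arrays.

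Dio2 signal was low in fat of both genotypes, with 1 of 18 values at or above the median of all values. Its probe set 1426081_a_at read 5.39, 4.36 and 2.70 on Naa10-KO replicates 1 to 3, and 4.75, 4.96 and 5.65 on WT replicates 1 to 3. The lowest array was Naa10-KO replicate 3, the highest was WT replicate 3, and the groups overlapped. Means were 4.15 ± 1.36 in Naa10-KO and 5.12 ± 0.47 in WT (SD, n = 3 each), a log2 difference of -0.97 (SE 0.73, limma adjusted p = 0.783).

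The other two Dio2 probe sets are annotated to 1 shared GenBank sequence, yet they did not order the arrays alike. Probe set 1418938_at read 4.93, 3.72 and 5.58 on the Naa10-KO arrays and 6.12, 1.90 and 5.36 on the WT arrays. Here WT replicate 2 stood low and the remaining arrays overlapped (log2 difference 0.29, SE 1.22). Probe set 1418937_at read 5.30, 0.27 and 5.69 on the Naa10-KO arrays and 5.50, 4.98 and 0.69 on the WT arrays. One array of each genotype fell far below the others, and the difference was 0.030 (SE 2.00). Its 95% interval ran from -4.99 to 5.05, so this probe set sets no useful bound. The interval of 1426081_a_at, from -2.81 to 0.87, was the narrowest of the Dio2 probe sets and still holds a 1.83-fold increase.

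Dio1 was also at low signal. Its single probe set, 1417991_at, read 4.07, 1.38 and 1.19 on the Naa10-KO arrays and 1.52, 0.28 and 4.23 on the WT arrays. All 6 values lay below the median of all values, with 1 higher array in each genotype, and the difference of 0.20 (SE 1.29, limma adjusted p = 0.976) was smaller than either group's SD of 1.61 in Naa10-KO and 2.02 in WT. At the Dio3 locus, the noncoding antisense gene Dio3os, looked up after the annotation of Dio3 was found missing, read 3.04, 2.33 and 4.12 on the Naa10-KO arrays and 5.25, 5.81 and 2.56 on the WT arrays. These groups overlapped at low signal (log2 difference -1.38, SE 0.99, adjusted p = 0.773), and Dio3os is no measure of Dio3 itself.

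Thra, which encodes the hormone-binding receptor α1 and a splice variant that does not bind hormone, gave all 18 values above the median of all values. Probe set 1454675_at read 9.58, 9.91 and 9.61 on the Naa10-KO arrays and 9.32, 9.70 and 9.90 on the WT arrays. The genotypes interleaved, and means were 9.70 ± 0.18 in Naa10-KO and 9.64 ± 0.29 in WT (SD, n = 3 each). The log2 difference was 0.060 (SE 0.24, limma adjusted p = 0.960), with a 95% interval from -0.53 to 0.65, that is from 0.692-fold to 1.57-fold. Probe set 1443952_at read 8.05, 8.40 and 8.47 on the Naa10-KO arrays and 7.66, 8.56 and 8.58 on the WT arrays. WT replicate 1 was lowest and the other 5 arrays lay closer together (log2 difference 0.036, SE 0.33). Probe set 1426997_at read 7.61, 8.11 and 8.09 on the Naa10-KO arrays and 7.58, 7.51 and 8.00 on the WT arrays, with overlapping groups (log2 difference 0.24, SE 0.25). The annotation does not say which probe sets see which splice variant.

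Thrb, the receptor best known for hormone action in liver and pituitary, lay around the median of all values. Its probe set 1422202_at read 4.40, 5.95 and 6.39 on the Naa10-KO arrays and 5.84, 6.36 and 5.28 on the WT arrays. Naa10-KO replicate 1 was lowest, Naa10-KO replicate 3 was highest, and the WT arrays fell between them. The log2 difference was -0.25 (SE 0.61, limma adjusted p = 0.933), and its interval from -1.77 to 1.28 was wider than that of any Thra probe set.

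Rxra, the retinoid X receptor that pairs with thyroid hormone receptors and with many other nuclear receptors, had 12 of 18 values at or above the median of all values. Probe set 1454773_at read 9.40, 9.90 and 10.01 on the Naa10-KO arrays and 9.77, 9.78 and 10.18 on the WT arrays. Only Naa10-KO replicate 1 stood below the WT arrays, and the difference was -0.14 (SE 0.26, limma adjusted p = 0.906). That array, also the lowest for Thrb, stood apart in the Gapdh control probe sets. There its 3′ signal exceeded the 5′ one by 0.55 on the log2 scale, against -0.27 to 0.012 on the other arrays. For Actb this excess was 2.07, against 1.42 to 1.85 on the other arrays. The part of RNA quality in the values of Naa10-KO replicate 1 was not tested for any member. Probe set 1425762_a_at read 7.59, 7.58 and 7.83 on the Naa10-KO arrays and 7.39, 7.93 and 7.98 on the WT arrays (log2 difference -0.10, SE 0.24). The Naa10-KO arrays lay inside the WT range. The remaining probe set, 1430497_at, was at low signal, with 1.11, 3.12 and 1.11 on the Naa10-KO arrays and 2.15, 1.88 and 2.38 on the WT arrays (log2 difference -0.36, SE 0.61). All 3 Rxra means were lower in Naa10-KO, and all 3 differences were smaller than their SE.

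**Figure D2:**
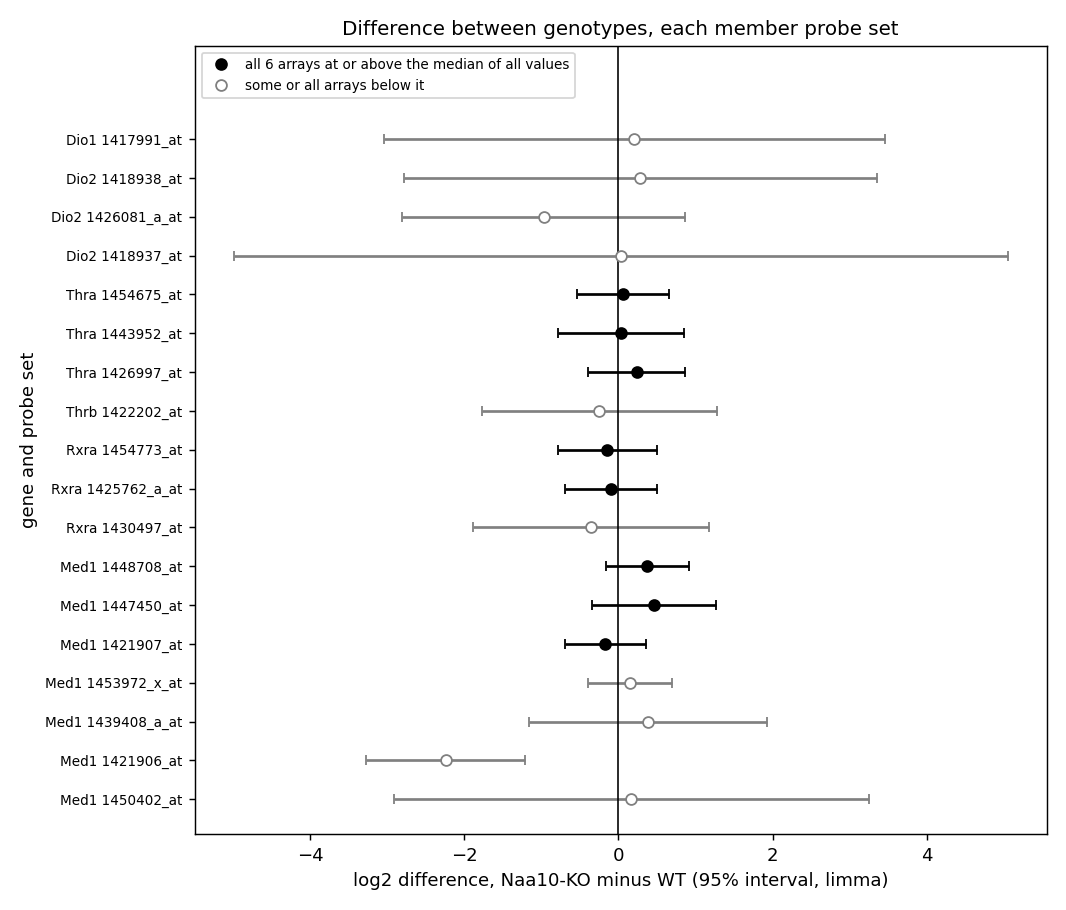
Log2 difference, Naa10-KO minus WT (x axis), with limma's 95% interval for each member probe set (y axis); filled points have all 6 arrays at or above the median of all values, and open points have some or all arrays below it. The 8 filled points lie between -0.17 and 0.46 with short intervals that include 0, while the interval of Med1 1421906_at, from -3.27 to -1.21, does not include 0.

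Med1 was measured by 7 probe sets, and 1 of them stood apart from the other 6. Probe set 1421906_at read 5.24, 4.04 and 3.99 on the Naa10-KO arrays and 6.82, 6.82 and 6.34 on the WT arrays. All 3 Naa10-KO values lay below all 3 WT values, and also below the median of all values. Means were 4.42 ± 0.71 in Naa10-KO and 6.66 ± 0.28 in WT (SD, n = 3 each). The log2 difference was -2.24 (SE 0.41, 4.72-fold lower), with an unadjusted p of 0.0022 and a limma adjusted p of 0.306 over all probe sets. With values under the median of all values raised to it, the difference was -0.81, so most of its size comes from signal below that mark. An exact permutation test on this probe set gave p = 0.10 (2-sided), the smallest that 3 against 3 arrays allow. Any probe set whose groups do not overlap gives this value, so the test adds nothing to the separation.

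The probe set of Med1 with the strongest signal, 1448708_at, overlapped between genotypes. It read 9.93, 9.50 and 9.66 on the Naa10-KO arrays and 9.18, 9.25 and 9.53 on the WT arrays. Means were 9.69 ± 0.21 in Naa10-KO and 9.32 ± 0.18 in WT (SD, n = 3 each), a log2 difference of 0.37 (SE 0.21, limma adjusted p = 0.728) with 1 WT array among the Naa10-KO arrays. Probe set 1447450_at read 6.59, 6.92 and 7.62 on the Naa10-KO arrays and 6.41, 6.76 and 6.57 on the WT arrays (log2 difference 0.46, SE 0.32). Naa10-KO replicate 3 was the highest of these, and the other arrays overlapped. Probe set 1421907_at, annotated to the same GenBank sequence as 1421906_at, read 6.71, 6.56 and 6.78 on the Naa10-KO arrays and 6.95, 6.58 and 7.03 on the WT arrays. Its groups overlapped, with a difference of -0.17 (SE 0.21).

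The last 3 Med1 probe sets were at low signal in both genotypes. Probe set 1450402_at, the third one annotated to that GenBank sequence, read 1.49, 5.54 and 5.45 on the Naa10-KO arrays and 4.50, 3.08 and 4.41 on the WT arrays (log2 difference 0.17, SE 1.22). Both the lowest and the highest array were Naa10-KO ones. Probe sets 1453972_x_at and 1439408_a_at had differences of 0.14 (SE 0.22) and 0.38 (SE 0.61), and their groups overlapped as well. Med1 means were thus higher in Naa10-KO for 5 of the 7 probe sets and lower for 2. Whether 1421906_at sees a particular Med1 transcript was not tested, since no probe sequences were used here.

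Genes whose values moved most like 2 of the members over the 6 arrays were picked by the root mean square distance between log2 values after removal of each probe set's mean, among 11359 genes whose mean reached the median of all values. For Dio2 1426081_a_at these were Ccdc77 (distance 0.39), Sox21 (0.44) and Chil3 (0.46), against a spread of 0.96 of Dio2 about its own mean. Ccdc77 read 7.49, 7.28 and 5.61 on the Naa10-KO arrays and 6.96, 7.39 and 7.53 on the WT arrays, so that Naa10-KO replicate 3 was low there too. For Thrb 1422202_at they were Cpt1a (0.16), Plcg2 (0.20) and Pde4a (0.22), against a spread of 0.69. Cpt1a, the carnitine palmitoyltransferase of the mitochondrial outer membrane, read 9.50, 10.76 and 11.44 on the Naa10-KO arrays and 11.17, 11.40 and 10.24 on the WT arrays. Its order of arrays was led, like that of Thrb, by Naa10-KO replicate 3, with Naa10-KO replicate 1 lowest. With so many genes and 6 arrays, close profiles are found for most patterns, and these are given as a description.

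The rest of the pathway was read from 9 gene lists with 125 measured genes, each read from its highest-mean probe set. None passed an adjusted p of 0.05 over all probe sets (0 of 125, against 0.00% of 18193 genes). At an unadjusted p under 0.05, 4 were higher (Ucp1, Atp2a1, Pck1 and Gpx3) and 2 were lower (Fasn and Me1) in Naa10-KO, against 3.64% and 3.39% of all genes. Groups did not overlap for 17 genes higher and 9 lower, against 10.0% and 8.14% of all genes. The median log2 difference of the 125 was 0.13, against 0.013 over all genes, with 82 means higher and 43 lower.

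Transporters that carry the hormone into cells showed no separation of the genotypes, with 2 of 7 means higher in Naa10-KO and a median difference of -0.13. Slco2b1, an organic anion transporter, differed by 0.59 (SE 0.26, limma adjusted p = 0.689), Slc7a8, an amino acid transporter that also accepts thyroid hormones, by -0.43, and its partner chain Slc3a2 by -0.13. Slc7a5, the related large amino acid transporter, differed by -0.33 (SE 0.76).

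Deiodinases are selenoproteins, and the enzyme made by Dio2 is removed by ubiquitination. Among 9 genes of these steps, groups did not overlap for 2 higher and 1 lower, against 10.0% and 8.14% of all genes. Sephs2, which makes the selenium donor, was at 12.19 ± 0.07 in Naa10-KO and 11.85 ± 0.20 in WT (SD, n = 3 each), a difference of 0.34 (limma adjusted p = 0.728). Sepsecs, which forms selenocysteine on its tRNA, differed by -0.29 (limma adjusted p = 0.743). Usp33, a deubiquitinase that acts on the Dio2 product, differed by 0.25, and Wsb1, the adaptor of the ligase that marks it, by 0.38 with overlapping groups. Other selenoproteins had 14 of 19 means higher and a median of 0.14. Their groups did not overlap for 4 higher and 2 lower, against the same shares of all genes. Gpx3, the secreted glutathione peroxidase, read 14.14, 13.80 and 13.12 on the Naa10-KO arrays and 11.50, 11.71 and 13.35 on the WT arrays. WT replicate 3 reached into the Naa10-KO range (log2 difference 1.50, SE 0.59, unadjusted p = 0.048, limma adjusted p = 0.669). Selenok and Selenos, both of the endoplasmic reticulum membrane, differed by 0.40 and 0.41 without overlap, and the mitochondrial thioredoxin reductase Txnrd2 by -0.33 without overlap.

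Of 8 genes of hormone binding and other metabolism, Trip12, a ubiquitin ligase first found as a receptor interactor, differed by -0.31 without overlap. Iyd, the iodotyrosine deiodinase, differed by -0.98, and Crym, a cytosolic triiodothyronine-binding protein, by 1.99 (SE 1.17), both with overlapping groups. Signal was low on all arrays for Crym and on all but WT replicate 1 for Iyd. Crym read 5.37, 4.47 and 5.76 on the Naa10-KO arrays and 2.72, 1.25 and 5.65 on the WT arrays, where WT replicate 3 lay inside the Naa10-KO range. Sult1a1, a sulfotransferase, differed by 0.23.

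Other receptors that pair with Rxra, and its own paralogs, overlapped between genotypes in all 11 cases (median 0.16, 9 means higher). Rxrg, the retinoid X receptor γ, was at 8.47 ± 0.27 in Naa10-KO and 8.11 ± 0.40 in WT (SD, n = 3 each), and Rxrb at 10.26 ± 0.20 in Naa10-KO and 10.10 ± 0.17 in WT. Ppara and Pparg, the fatty acid-sensing receptors of oxidation and of adipocyte formation, differed by 0.34 and 0.16. Nr1h4, the bile acid receptor, differed by 1.02 (SE 1.13), with 2 of 6 arrays at or above the median of all values, and by 0.074 with lower values raised to that median.

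Corepressors, which silence target genes when no hormone is bound, had a median of 0.17 over 6 genes. Hdac3, the deacetylase of the complex, differed by 0.24, Tbl1xr1 by 0.14 without overlap, Gps2 by 0.33 and Nrip1 by 0.21. Coactivators had a median of 0.081 over 11 genes, with 10 means higher. Carm1, an arginine methyltransferase, was the 1 coactivator whose groups did not overlap (log2 difference 0.36, SE 0.19, limma adjusted p = 0.714). Of all genes, 10.0% were higher without overlap. Ppargc1a, which encodes Pgc1α, differed by 0.27 (SE 0.35), Ep300 by 0.13 and Ncoa2 by -0.17.

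The other 32 Mediator subunits and kinase-module genes were measured beside Med1. Their median difference was 0.16, with 22 means higher and 10 lower, and groups did not overlap for 5 genes higher (Med20, Med25, Med28, Med17 and Med13) and 2 lower (Med16 and Med24), against 10.0% and 8.14% of all genes. Of these genes Med20 and Med25 were named for their small unadjusted p, and the others were picked after their values were seen. Med20 was at 10.71 ± 0.12 in Naa10-KO and 10.30 ± 0.08 in WT (SD, n = 3 each), a difference of 0.41 (SE 0.18, limma adjusted p = 0.687). Med25, Med14 and Med11 differed by 0.51, 0.48 and -0.41. Differences in this list ran from -0.44 to 0.51, and Med1 read in the same way, from its highest-mean probe set 1448708_at, lay inside that range at 0.37.

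**Figure D3:**
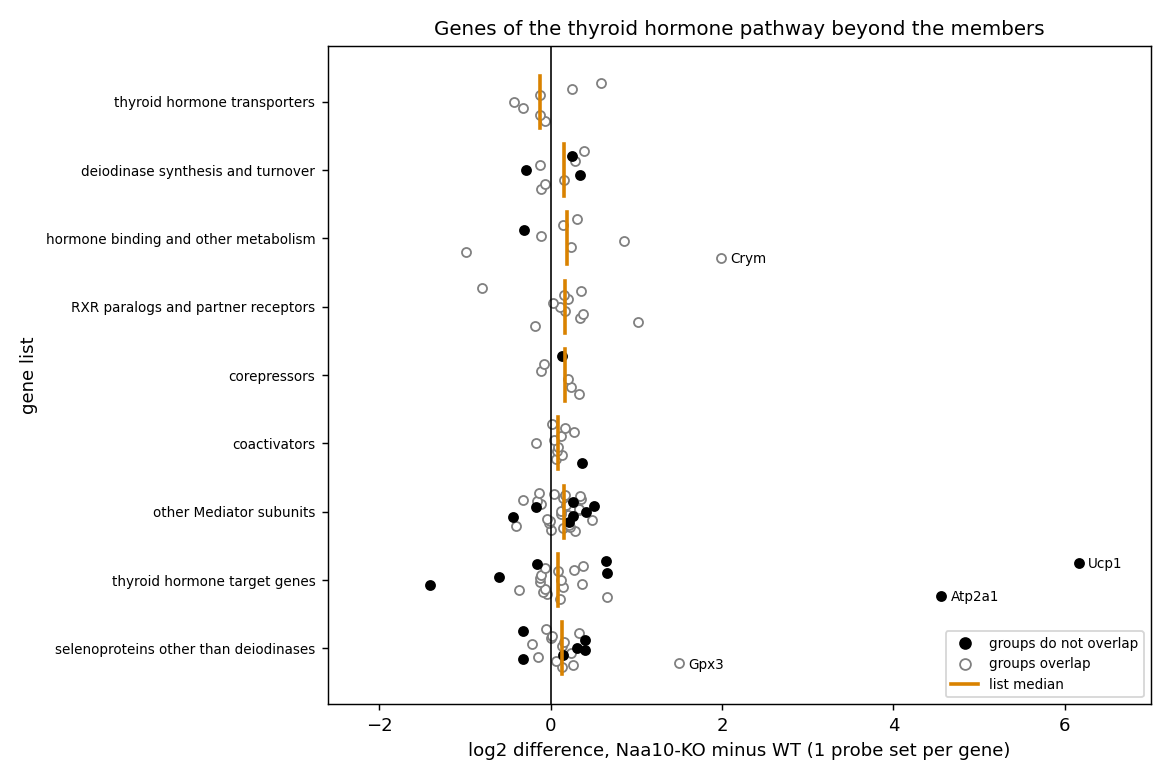
Log2 difference, Naa10-KO minus WT (x axis), of each gene in 9 lists of the thyroid hormone pathway (y axis), 1 probe set per gene; filled points have groups that do not overlap, open points overlap, and orange bars are list medians. Medians lie between -0.13 and 0.19, and Ucp1 (6.17) and Atp2a1 (4.56) in the target list lie far from the other points.

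Genes that thyroid hormone is known to act on in one tissue or another had means on both sides. Of 23 measured, 12 means were higher and 11 lower (median 0.088). Groups did not overlap for 4 higher (Ucp1, Atp2a1, Pck1 and Ucp3) and 3 lower (Fasn, Me1 and Thrsp), against 10.0% and 8.14% of all genes. Unadjusted p-values were under 0.05 for 3 higher (Ucp1, Atp2a1 and Pck1) and 2 lower (Fasn and Me1). Atp2a1, Fasn and Pck1 were named for their small unadjusted p. Ucp3 (log2 difference 0.64) and Me1 (-0.61) were picked after their values were seen. Ucp1, which uncouples respiration for heat in brown and beige fat, read 9.56, 10.75 and 9.55 on the Naa10-KO arrays and 4.75, 4.01 and 2.60 on the WT arrays. All WT values lay below the median of all values, and the log2 difference was 6.17 (SE 0.66, limma adjusted p = 0.109). Raised to that median, it was 4.10. Dio2 probe sets on the same arrays overlapped between genotypes, as given above.

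Atp2a1, the calcium pump of fast muscle, read 10.51, 10.50 and 10.92 on the Naa10-KO arrays and 3.93, 6.11 and 8.21 on the WT arrays (log2 difference 4.56, limma adjusted p = 0.456). Of 9 measured brown and beige adipocyte markers, 6 means were higher and 3 lower (Dio2, Otop1 and Prdm16). Groups did not overlap for 4 higher, against 10.0% of all genes. These were Ucp1, Cidea (log2 difference 2.10), Cox7a1 (2.00) and Cox8b (1.17). Groups overlapped for Dio2, Ppargc1a, Otop1, Elovl3 and Prdm16. Skeletal muscle markers also differed on the same arrays. The mean over 27 such markers, Atp2a1 among them, lay between 10.55 and 10.79 in Naa10-KO and between 4.96 and 7.85 in WT. For 25 of the 27 no WT array reached the lowest Naa10-KO array, against 10.0% of all genes. WT replicate 3 had the highest of the WT muscle means (7.85, against 4.96 and 5.39). It was also the WT array nearest to Naa10-KO in Crym and in Med1 1421906_at (6.34, against 6.82 and 6.82). The same held for Pck1, Gpx3, Fasn and Me1, and for Atp2a1, itself 1 of the 27 muscle markers. These are the pathway genes other than Ucp1 with an unadjusted limma p under 0.05. For Ucp1, WT replicate 3 was the lowest WT array and lay farthest from Naa10-KO. None of the 27 was below the median of all values on all arrays. In bulk tissue, more cells of a type and more RNA per cell cannot be told apart. The part of muscle RNA in the values of Med1 1421906_at, Crym, Atp2a1, Pck1, Gpx3, Fasn and Me1 was not tested. Nor was it tested for the brown and beige markers, among them Ucp1, Cidea, Cox7a1 and Cox8b. The labelled tissue held its white adipocyte markers at high signal in both genotypes, where the mean over 10 genes was 14.29 to 14.51 in Naa10-KO and 14.34 to 14.69 in WT.

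Targets in fat synthesis and glyceride supply gave mixed values. Fasn, fatty acid synthase, read 9.55, 10.34 and 10.19 on the Naa10-KO arrays and 11.51, 11.55 and 11.25 on the WT arrays, a log2 difference of -1.41 (SE 0.28, limma adjusted p = 0.340). Thrsp, a lipogenic protein long used as a readout of thyroid hormone in liver and fat, was at 13.15 ± 0.08 in Naa10-KO and 13.32 ± 0.12 in WT (SD, n = 3 each), without overlap but with a difference of -0.17 (SE 0.18). Pck1, the phosphoenolpyruvate carboxykinase of glyceroneogenesis, was at 14.07 ± 0.15 in Naa10-KO and 13.41 ± 0.23 in WT (log2 difference 0.65, SE 0.21, limma adjusted p = 0.628). Klf9, a transcription factor gene that responds to the hormone in many tissues, differed by -0.13 (SE 0.27) with overlapping groups.

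**Figure D4:**
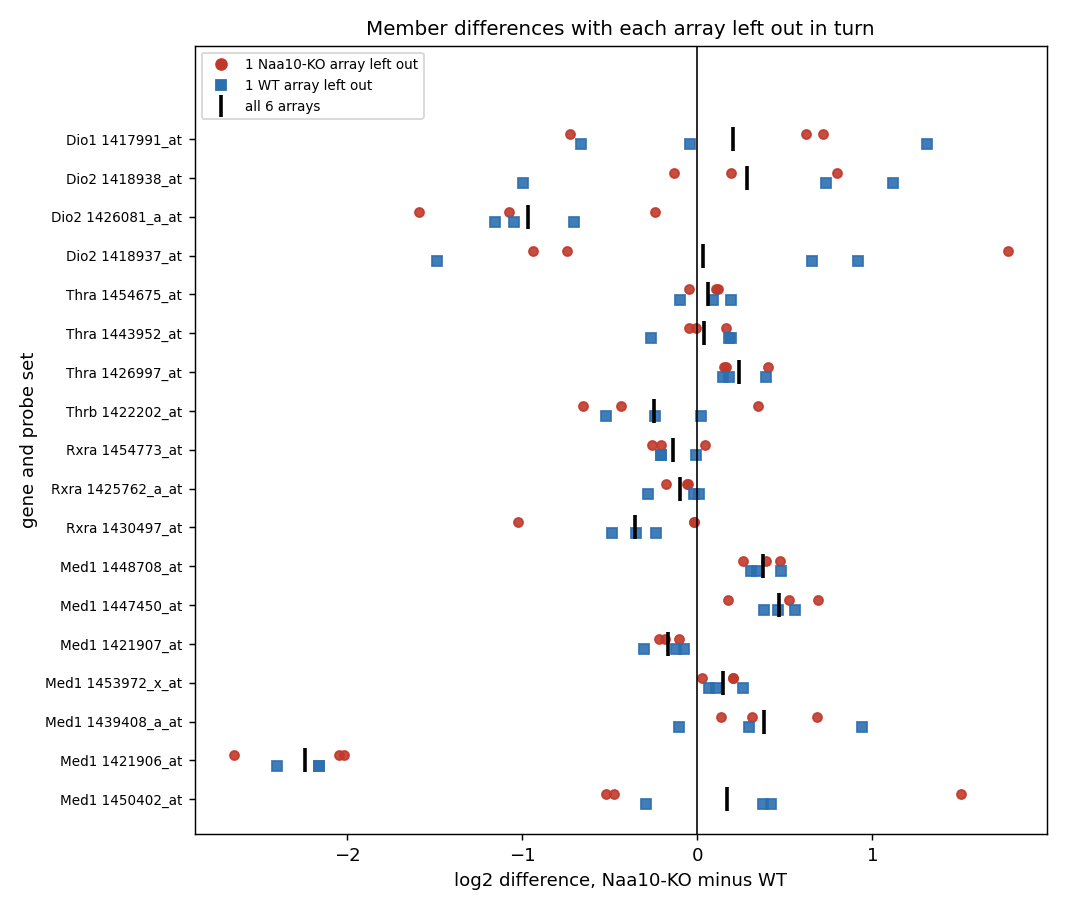
Log2 difference, Naa10-KO minus WT (x axis), of each member probe set (y axis) with each array left out in turn: red circles without 1 Naa10-KO array, blue squares without 1 WT array, black ticks with all 6 arrays. Med1 1421906_at stays between -2.65 and -2.02, Thra 1454675_at between -0.10 and 0.19, and Dio2 1418937_at spreads from -1.49 to 1.77.

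Single arrays decided the sign of many small differences. With each array left out in turn, 10 of the 18 member probe sets changed sign at least once, among them Dio1, 2 of the 3 Dio2 probe sets and Thrb. Med1 1421906_at stayed between -2.65 and -2.02 and did not pass in any of these fits. The 8 member probe sets with all arrays at or above the median of all values had SEs of 0.21 to 0.33, and their 95% intervals together spanned -0.78 to 1.27. The other 10 had SEs of 0.22 to 2.00. For Dio1 and Dio2 the arrays thus bound the difference only loosely, whereas for Thra and Rxra the intervals of the probe sets with clear signal held no change beyond 0.87 on the log2 scale.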

How the data were processed

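The authors deposited 1 log2 signal per probe set and array. On the linear scale the mean after trimming 2% at each end is 500 on all 6 arrays, so each array was scaled to 1 level. The software behind the values is not stated in the labels or the file. Medians of the arrays were 5.78 to 5.96, and correlations between arrays 0.903 to 0.917. Of 45101 probe sets, 64 controls were left out. Names came from a platform annotation of 2016. Naa10-KO was set against WT in limma 3.58.1 (R 4.3.3; lmFit and eBayes with genotype as the 1 term, 2-sided; 1.41 prior degrees of freedom), adjusted over 45037 probe sets. Precision is limited by the number of arrays, and the labels do not say that mice shared a litter or a day. The limma fit was tested on simulated data with spreads shuffled among probe sets, so that low signal was not tied to large spread there.

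Members, lists and tests were chosen with earlier results of these data known. Genes named are all member probe sets, up to 4 genes per list by smallest unadjusted p, and Ppargc1a, Ucp1, Thrsp, Klf9, Rxrb and Rxrg (1 further gene of the rule is not reported here); Dio3os was added after values were seen. Over all probe sets, same-numbered arrays did not deviate together (correlations of -0.019, 0.0002 and 0.003). This cannot exclude a shared litter or day that moved only some genes. The main fit did not pair the arrays.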

Additional observations from a re-analysis of the deposited data

How the results depend on the processing

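Over 9 settings that kept all arrays, 131 of 134 member values kept their sign, and none passed the threshold. The lowest adjusted p (limma) was 0.0808, for Med1 1421906_at with the filter on low values. That filter kept probe sets whose mean in either genotype reached the median of all values. This probe set passed it through WT alone, so the lower p-value adds no separate support. Over the 9 settings the value of Med1 1421906_at ranged from -2.37 (array weights) to -0.81 (low values raised to the median). Its adjusted p ranged from 0.0808 to 0.620, the highest with the replicate block (limma). Under that replicate block 0 probe sets, 0 members and 0 pathway genes were called, as without it. In the labels, same-numbered arrays share only a number. The sign turned for Dio2 1418938_at (-0.088) and Thrb (0.042) with low values raised to the median, and for Dio2 1418937_at with array weights (-0.97); the cause was not tested.

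Without 1 array, values ran from -0.73 to 1.31 for Dio1, -0.996 to 1.12 for Dio2 1418938_at, -1.49 to 1.77 for Dio2 1418937_at, -0.10 to 0.19 for Thra 1454675_at, -0.27 to 0.19 for Thra 1443952_at and -0.65 to 0.34 for Thrb. They ran from -0.26 to 0.045 for Rxra 1454773_at, -0.28 to 0.0095 for Rxra 1425762_a_at, -0.10 to 0.94 for Med1 1439408_a_at and -0.52 to 1.50 for Med1 1450402_at.

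Over all probe sets, 0 were called in limma, with 3362 at an unadjusted p under 0.05. There were 80 with the filter on low values, 146 with the floor, 185 with trend and robust options, 21 with 1 probe set per gene, 1 in the unmoderated test and 57 at an adjusted p of 0.10, and 0 to 1 without 1 array (1 without WT replicate 3). Pathway genes called were 1 with the filter and 1 with the floor (Ucp1), and 2 with trend and robust options (Ucp1 and Fasn). Ucp1 passed the filter through Naa10-KO alone, and the floor made all its WT values equal. The calls under the filter and the floor therefore add no separate support. Signals near the low end limit what can be said of Dio1 and Dio2.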
